A study of Homo sapiens with 6 samples.

Results

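Chaperone genes of the heat shock network were followed in cultures of AGS, an established human gastric carcinoma line, kept with celecoxib, a drug that inhibits the prostaglandin-making enzyme cyclooxygenase-2. The members were listed by name, by chaperone class, and each was read from the transcript cluster (the array's unit of measurement, probes spread along a transcript) that the platform annotation ties to that symbol alone, the brightest where a gene had several. Of 42 listed genes 39 were found, among 18417 genes in all. AHSA1, HSPB11 and HSF2 were not analysed under this rule. HSPA1A and HSPA1B, which are stress-inducible HSP70 genes, were not listed, and all 5 clusters annotated with either of them carry several symbols, so they were not analysed here either. The name of the group as cytosolic covers most but not all members: HSPA9, HSPD1, HSPE1 and DNAJA3 encode mitochondrial proteins and HSPA13 a protein of microsomes.

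The study set 3 arrays of AGS cells given 20 µM celecoxib for 24 h beside 3 arrays of cells labelled as untreated controls. All cells had first grown for 48 h after seeding, and 250 ng of total RNA went into each labelling. The drug came from a stock in DMSO, and the labels do not say if controls got the solvent, so drug and solvent cannot be told apart. The titles speak of biological replicates and the extraction protocol of pooling, with no record of which wells an array holds, so p-values measure the spread between these arrays, which may be technical.

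Values were log2 expression, and every difference is celecoxib minus control on that scale. The array medians lay between 6.75 and 6.82. The epithelial markers KRT8, KRT18, KRT19 and EPCAM read between 11.1 and 12.7 in every array, and 9 markers of leukocytes, fibroblasts and endothelium between 3.85 and 7.78. Celecoxib replicate 1 stood apart in its small nuclear and nucleolar RNA, whose median over 207 genes was 7.68 there, against 7.27 and 7.27 in the other celecoxib arrays and 7.14, 7.01 and 7.14 in the controls. Near-identical family members can share probes, so values within the HSP70, HSP90 and HSPA4 families carry that uncertainty, and levels are not compared between genes.

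Chaperones bind unfolded proteins and help them fold, refold or reach the degradation machinery. HSP70 proteins work in cycles of ATP binding and hydrolysis that J-proteins start and that nucleotide exchange factors, among them the HSP110 and BAG proteins, bring to an end. HSP90 takes over late folding steps of kinases and steroid receptors with the help of co-chaperones, and the chaperonins form closed chambers, in the cytosol for actin and tubulin and in mitochondria for imported proteins. Many of these genes are switched on together by the heat shock factor HSF1, which binds heat shock elements, inverted repeats of the unit GAA, in promoters.

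The promoters of the genes with an element of 3 such units, and of the genes with the largest differences, are shown first, because they allow the members' values to be read against the letters HSF1 is known to bind. They are taken from RefSeq (GRCh38.p14), read 5′ to 3′ on the gene's strand. Capitals mark the 3-unit elements in the first 4 sequences, and inverted pairs in those of HSPB1 and HSPB8. The promoter window ran from 250 bases before the annotated start to 50 after it, and 36 of the 39 genes matched (HSPA14, FKBP4 and HSF1 did not). For each member only the first listed promoter was read. An element of 3 units (GAANNTTCNNGAA or its reverse complement TTCNNGAANNTTC, both strands) occurred in 4 of the 36 promoters (11.1%), those of HSPA8, CHORDC1, DNAJB6 and DNAJA1, and in 172 of all 35116 promoters of the same length (0.490%). With 1 promoter for each of 14239 measured genes the share was 0.407%. The HSPA8 promoter (chr11:123062137-123062386, minus strand) holds 2 of these elements and CHORDC1 (chr11:90223050-90223169, minus strand) 3 that overlap in an unbroken run, beside a separate pair 23 to 16 bases before the start that is left in lower case. Another CHORDC1 pair, 205 to 198 bases before the start, lies outside the printed stretch. DNAJB6 (chr7:157336819-157336938, plus strand) holds 1, and in DNAJA1 (chr9:33025268-33025296, plus strand) the element lies just past the annotated start. A separate DNAJA1 pair, 198 to 191 bases before the start, is not shown.
HSPA8: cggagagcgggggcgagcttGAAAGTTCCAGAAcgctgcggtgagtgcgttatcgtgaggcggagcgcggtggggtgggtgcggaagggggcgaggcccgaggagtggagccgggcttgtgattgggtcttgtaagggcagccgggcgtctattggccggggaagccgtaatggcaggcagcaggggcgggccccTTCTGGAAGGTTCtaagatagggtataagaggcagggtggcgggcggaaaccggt
CHORDC1: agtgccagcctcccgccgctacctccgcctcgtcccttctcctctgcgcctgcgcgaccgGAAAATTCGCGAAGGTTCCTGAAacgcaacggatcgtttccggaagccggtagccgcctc
DNAJB6: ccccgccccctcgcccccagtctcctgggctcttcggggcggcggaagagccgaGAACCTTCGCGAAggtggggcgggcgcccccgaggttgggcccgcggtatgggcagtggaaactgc
DNAJA1: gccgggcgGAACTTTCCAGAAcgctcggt

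The shorter inverted pair (GAANNTTC or TTCNNGAA, each its own reverse complement, so that every longer element also counts as pairs) occurred in 11 of 36 members' promoters (30.6%) and in 13.5% of all promoters. HSPA1L, HSPA9, BAG2, CCT4 and TCP1 hold a pair too and are not shown. HSPB1 (chr7:76302435-76302554, plus strand) and HSPB8 (chr12:119178787-119178906, plus strand), the members with the most negative differences, each hold a pair before the start, and HSPB8 another just past it that is not shown. HSPA13 (chr21:14383147-14383266, minus strand) and HSPA4L (chr4:127781676-127781795, plus strand), with the most positive differences, hold no pair in the window, and the 120 bases before their starts are given for comparison. The promoters printed below were picked by the genes' differences. Over all members with a promoter, 6 of the 11 with a pair and 15 of the 25 without had positive differences.
HSPB1: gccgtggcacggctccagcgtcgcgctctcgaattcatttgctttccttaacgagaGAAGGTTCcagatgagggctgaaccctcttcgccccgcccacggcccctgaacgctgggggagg
HSPB8: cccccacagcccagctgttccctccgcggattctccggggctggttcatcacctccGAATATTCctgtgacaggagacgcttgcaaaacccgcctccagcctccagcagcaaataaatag
HSPA13: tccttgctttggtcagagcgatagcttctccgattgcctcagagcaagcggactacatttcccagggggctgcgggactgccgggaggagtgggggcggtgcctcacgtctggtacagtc
HSPA4L: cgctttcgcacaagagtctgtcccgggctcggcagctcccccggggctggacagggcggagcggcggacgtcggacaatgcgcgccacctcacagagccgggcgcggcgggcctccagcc

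No chaperone gene passed the threshold of an adjusted p of 0.05 (0 of 39, limma, Benjamini-Hochberg adjustment over all genes), where 0.141% of all genes did. Among all genes the smallest difference called was 0.50 in size, and the largest of a member was 0.37 (HSPA13). A count of 0 therefore does not show that the members were unchanged. The smallest adjusted p was 0.181, for HSPB8, and 22 members had positive and 17 negative differences, with a median of 0.01 beside -0.01 over all genes. Of the members 34 differed by less than 0.2 in either direction, and 21 by less than 0.1. Each of the 39 intervals (95%, per gene) lay inside 1 on either side, so a doubling or halving of the measured level was outside all of them; the bound farthest from 0 was 0.62, for HSPA13. In bulk RNA, a smaller share of some cells and less RNA per cell cannot be told apart. The split of 22 to 17 turned to 18 positive and 21 negative with quantile normalization applied again, with cyclic loess, with array weights and without celecoxib replicate 1, and to 19 and 20 without control replicate 2.

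**Figure D1:**
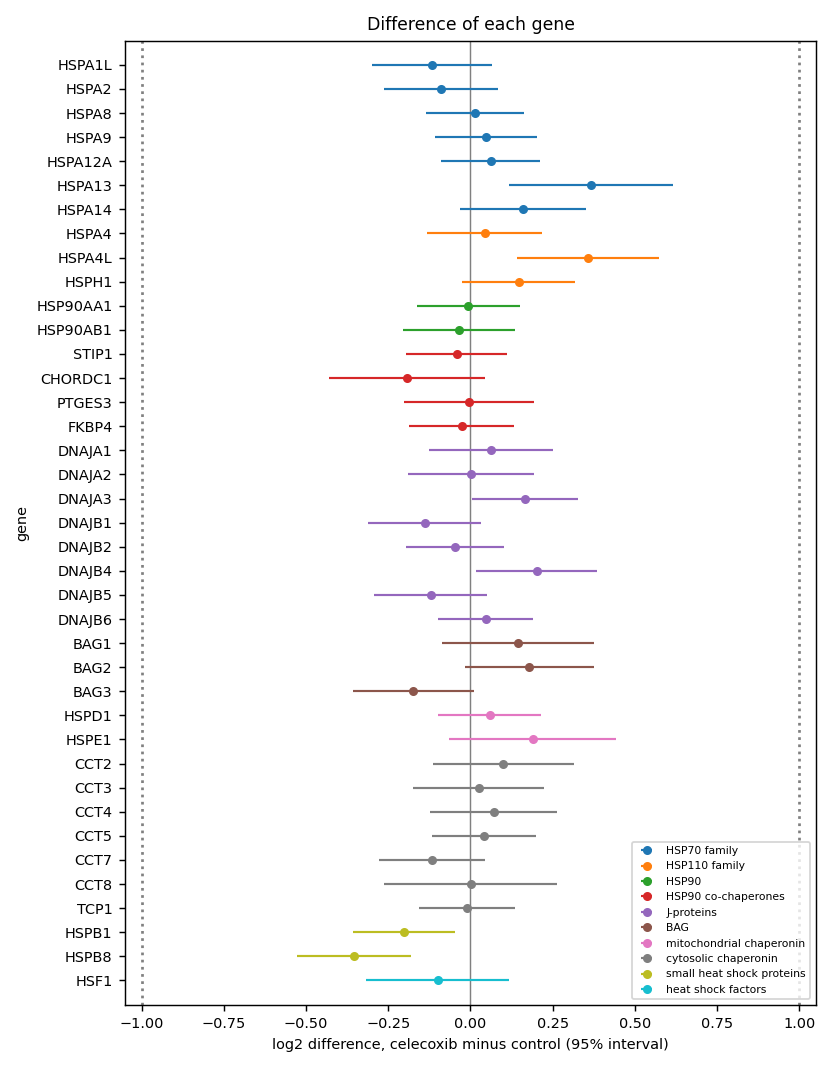
Log2 difference (celecoxib minus control, x axis) of each of the 39 genes, coloured by class; points are estimates from 3 arrays a group and bars are 95% intervals, and dotted lines mark 1 on either side. All bars lie inside the dotted lines, and those of HSPA13, HSPA4L, DNAJA3, DNAJB4, HSPB1 and HSPB8 do not cross 0.

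At an unadjusted p under 0.05 there were 6 members, 4 with higher values under celecoxib (10.3% of 39, against 6.87% of all genes) and 2 with lower values (5.13%, against 4.44%). The higher ones were HSPA13, HSPA4L, DNAJB4 and DNAJA3 and the lower ones the small heat shock genes HSPB8 and HSPB1. These shares lie near those of all genes. The split of 4 to 2 was 4 to 5 with quantile normalization applied again 3 to 5 with cyclic loess and 5 to 6 with array weights. The 4 became 2 without control replicate 1, 2 or 3, and the 2 became 1 without control replicate 2 and 3 without celecoxib replicate 1. The 2 groups of arrays did not overlap in 7 members with higher values (17.9%, against 11.1% of all genes) and 3 with lower values (7.69%, against 7.95%).

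**Figure D2:**
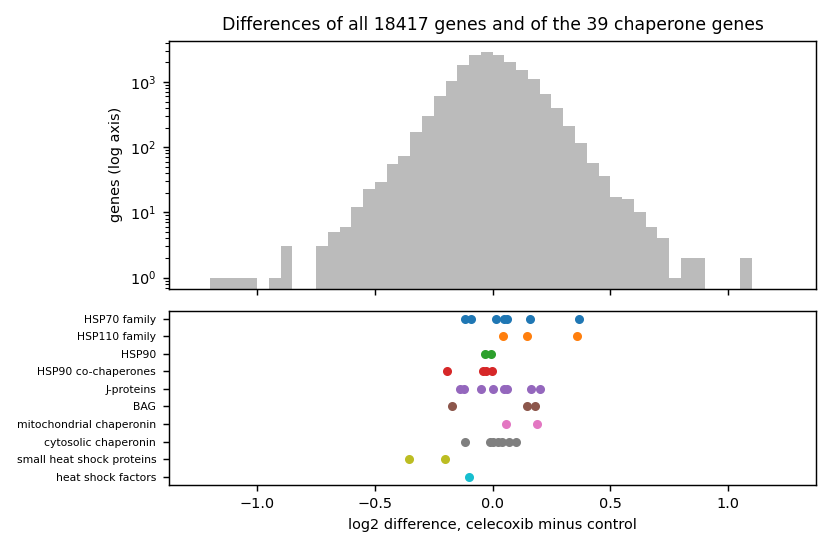
Histogram of the log2 differences of all 18417 genes (upper panel, number of genes on a log axis) above the differences of the 39 chaperone genes by class (lower panel, 1 point a gene). The chaperone genes lie between -0.35 and 0.37, while all genes reach from -1.16 to 1.09.

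The small heat shock proteins, ATP-independent holders of unfolded protein, were represented by HSPB1 and HSPB8, the members with the most negative differences. HSPB8, which works in a complex with BAG3 that hands misfolded proteins to autophagy, read 8.14, 8.05 and 7.99 in the controls and 7.78, 7.62 and 7.72 with celecoxib. All celecoxib arrays lay below all controls. The means of 8.06 ± 0.07 and 7.71 ± 0.08 (SD, n = 3 each) differed by -0.35 ± 0.08 (SE), a level 1.28-fold lower (limma adjusted p = 0.181). Over 18 alternatives its adjusted p lay between 0.0248 and 0.589, and it was under the threshold with array weights alone, the setting with 0.0248. That setting gave control replicate 1, the highest array for HSPB8, a weight of 5.85, against 0.37 to 1.21 for the other arrays. HSPB1, known as HSP27 and abundant in epithelial tumours, read 11.51, 11.58 and 11.59 in the controls and 11.40, 11.32 and 11.36 with celecoxib. Its groups did not overlap either, and the difference was -0.20 ± 0.07 (limma adjusted p = 0.352). The median of the 2 genes was -0.28, and it stayed between -0.31 and -0.25 when any array was left out. The other measured small heat shock genes, taken from the wider list of chaperone genes, were split in direction: of 5, CRYAB (0.15) and HSPB3 (0.08) had positive and HSPB6 (-0.03), HSPB7 (-0.11) and HSPB9 (-0.17) negative differences, with a median of -0.03. All 5 lay below the median signal of the arrays' clusters, 6.785, and the group means of CRYAB and HSPB3 lay between 4.64 and 4.84. Signal over background was not examined, so the directions of these dim genes are uncertain.

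**Figure D3:**
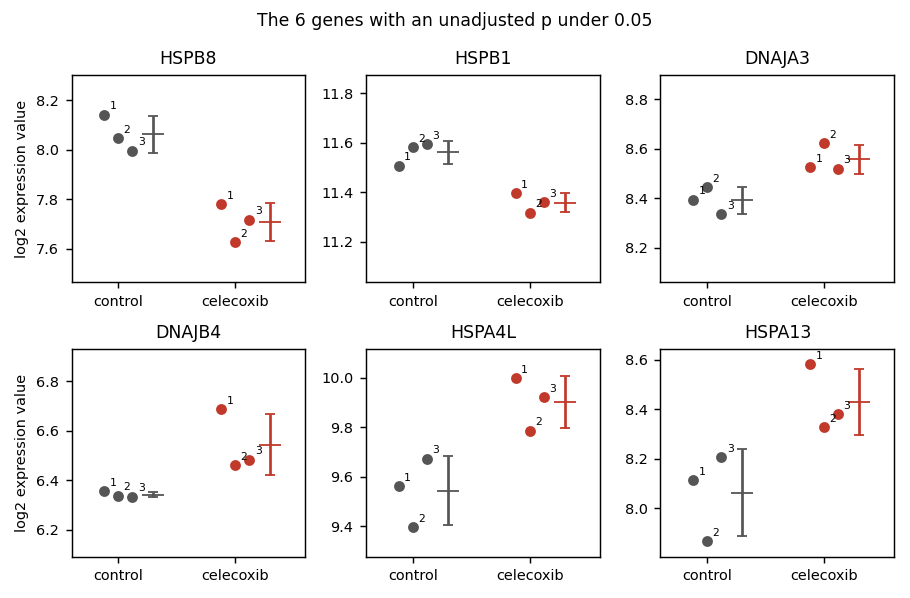
Log2 expression value of the 6 genes with an unadjusted p under 0.05 in each array; numbers are replicate numbers, bars at the side are mean ± SD (n = 3), and all panels span the same range on the y axis. No panel has overlap between its celecoxib and control arrays.

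The HSP70 family held 5 genes with positive and 2 with negative differences, with a median of 0.05. The median was 0.01 without celecoxib replicate 1, with array weights and with cyclic loess. HSPA8, the constitutive HSP70 whose promoter holds the 3-unit elements shown above, read 13.55, 13.49 and 13.58 in the controls and 13.55, 13.54 and 13.57 with celecoxib. The celecoxib arrays lay within the range of the controls, and the difference of 0.01 had an interval from -0.14 to 0.16 (limma adjusted p = 0.949). It was -0.02 with cyclic loess and -0.01 with quantile normalization applied again. HSPA13, a microsomal relative that lacks the substrate-binding domain, read 8.11, 7.87 and 8.21 in the controls and 8.58, 8.33 and 8.38 with celecoxib. Every celecoxib array lay above every control, by a mean of 0.37 ± 0.11 (SE, limma adjusted p = 0.312). HSPA9, the mitochondrial HSP70, differed by 0.05, HSPA14, a partner of a ribosome-bound J-protein, by 0.16, and HSPA12A, a distant relative, by 0.06 with groups that did not overlap (7.36, 7.37 and 7.30 against 7.41, 7.43 and 7.38). HSPA2 and HSPA1L, both best known from the testis, differed by -0.09 and -0.12. The 3 clusters annotated to HSPA1L held identical values in each array and count as 1 measurement. HSPA6, an HSP70 gene of the wider list, differed by -0.05 with an interval from -0.25 to 0.15 and overlapping groups (limma adjusted p = 0.838). It lay below the median signal of the arrays' clusters.

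The HSP110 family, relatives of HSP70 that act as its exchange factors, had 3 positive differences of 3 and a median of 0.15. Control replicate 2 was the lowest array in all 3 genes, where it was lowest in 20.2% of all genes. Without celecoxib replicate 1, 2 of the 3 were positive, the median was 0.19 and HSPA4L differed by 0.31. HSPA4L read 9.56, 9.40 and 9.67 in the controls and 10.00, 9.79 and 9.92 with celecoxib. The groups did not overlap, and the means of 9.54 ± 0.14 and 9.90 ± 0.11 (SD, n = 3 each) differed by 0.36 ± 0.09 (SE, limma adjusted p = 0.273). HSPH1, the heat-inducible member known as HSP105, read 10.60, 10.58 and 10.69 against 10.69, 10.76 and 10.86. Its lowest celecoxib value lay just above the highest control, and the difference was 0.15 ± 0.07 (limma adjusted p = 0.490). HSPA4, the constitutive member, differed by 0.04 with an interval from -0.13 to 0.22, and by -0.01 with array weights or without celecoxib replicate 1. Whether HSPA4L differed more than HSPA4 was not tested.

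The 6 measured members in the classes of HSP90 and its co-chaperones had negative differences, most of them close to 0. Further co-chaperones of the wider list were split in direction and are given below. HSP90AA1, the inducible cytosolic HSP90, read 12.40, 12.30 and 12.41 in the controls and 12.36, 12.33 and 12.40 with celecoxib, a difference of -0.01 with an interval from -0.16 to 0.15. HSP90AB1, the constitutive form, read 12.39, 12.35 and 12.46 against 12.46, 12.34 and 12.31, a difference of -0.03 with an interval from -0.20 to 0.14. In both genes the groups overlapped. The median of the pair was -0.02, and it turned to 0.005 without control replicate 3. Of the co-chaperones, STIP1, which links HSP70 to HSP90, differed by -0.04, FKBP4, a partner of steroid receptors, by -0.03, and PTGES3, the p23 protein that stabilises the closed form of HSP90, by -0.004. PTGES3 was just above 0 after median centring, and HSP90AA1, PTGES3 and FKBP4 were also positive without control replicate 1. CHORDC1, whose promoter holds 3 overlapping elements, read 9.57, 9.57 and 9.73 in the controls and 9.63, 9.28 and 9.39 with celecoxib. Celecoxib replicates 2 and 3 lay below all controls and replicate 1 among them, and the difference was -0.19 ± 0.10 (SE, limma adjusted p = 0.501).

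J-proteins, which bring clients to HSP70, split into 5 positive and 3 negative differences. DNAJB4 read 6.36, 6.34 and 6.33 in the controls and 6.69, 6.46 and 6.48 with celecoxib, 0.20 ± 0.08 apart (SE, limma adjusted p = 0.413). Celecoxib replicate 1 stood highest, and without it the difference was 0.13 and the unadjusted p no longer under 0.05. The gene lay below the median signal of the arrays' clusters. DNAJA3, the mitochondrial J-protein, read 8.39, 8.45 and 8.34 against 8.53, 8.62 and 8.52, a difference of 0.17 ± 0.07 with no overlap (limma adjusted p = 0.433).

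DNAJB1, the main heat-inducible J-protein of the cytosol, went the other way in its values, with 9.43, 9.54 and 9.56 in the controls and 9.33, 9.45 and 9.32 with celecoxib. Its groups overlapped through celecoxib replicate 2, and the difference was -0.14 ± 0.08 (SE, limma adjusted p = 0.507). DNAJB5 and DNAJB2 differed by -0.12 and -0.05. DNAJA1 and DNAJA2, the general farnesylated J-proteins, differed by 0.06 and 0.002. DNAJB6, a suppressor of protein aggregation, read 9.80, 9.79 and 9.82 in the controls and 9.82, 9.86 and 9.86 with celecoxib in its brightest cluster. It differed there by 0.05, with groups that did not overlap by a narrow margin, and by 0.04 in a second cluster, where they did. The median of the class, 0.02, was negative with array weights, with cyclic loess (-0.007), without celecoxib replicate 1 (-0.007) and without control replicate 3 (-0.003).

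The BAG proteins, which release ADP from HSP70 and link it to degradation, did not share a direction. BAG3, a stress-inducible member, read 8.53, 8.56 and 8.54 in the controls and 8.26, 8.51 and 8.35 with celecoxib. All celecoxib values lay below the controls, replicate 2 by little, and the difference was -0.17 ± 0.08 (SE, limma adjusted p = 0.455). BAG2, which holds back the ubiquitin ligase of HSP70, differed by 0.18 ± 0.09 (adjusted p = 0.461) and BAG1 by 0.14 ± 0.10 (adjusted p = 0.592). The groups overlapped in BAG1 and BAG2. BAG1 stood at 0.04 without control replicate 3, its lowest array, and with array weights, and BAG2 at 0.11 without celecoxib replicate 1 and 0.10 with array weights. BAG3 and its partner HSPB8 were both lower in every celecoxib array than in every control. That held for 3 of 39 members (7.69%), near the 7.95% of all genes, and a joint shift of the pair was not tested.

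**Figure D4:**
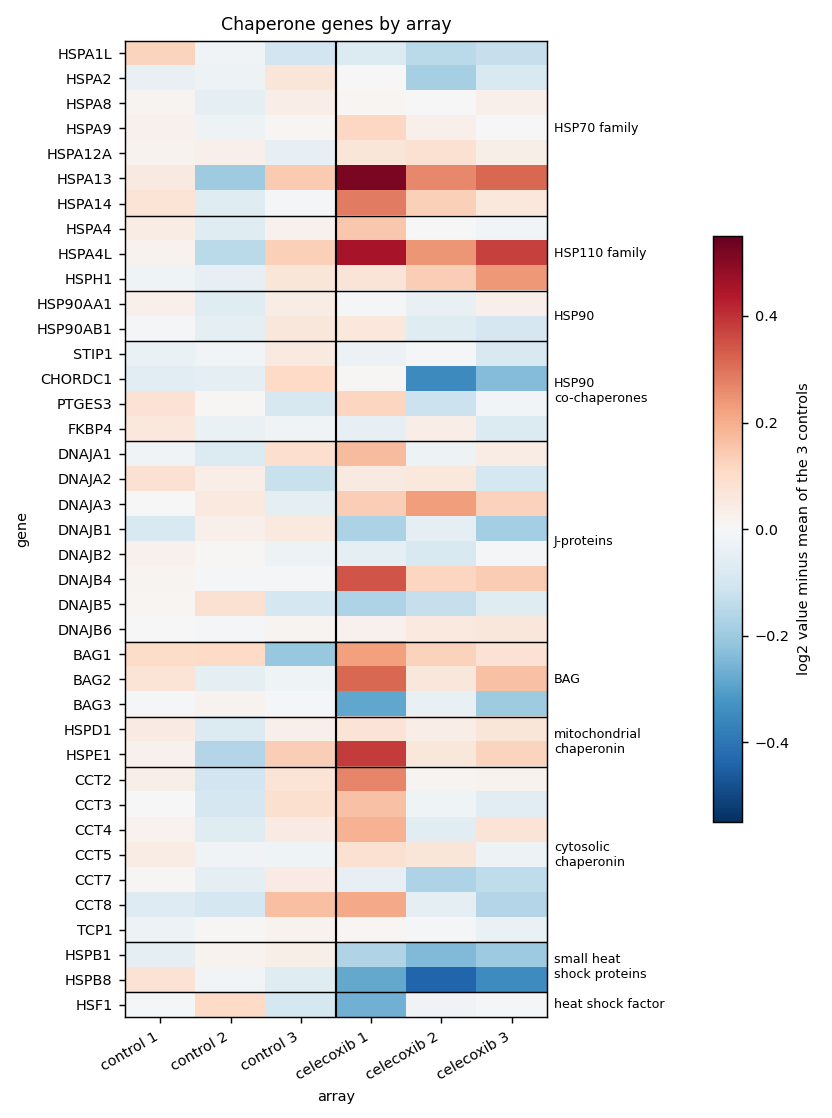
Log2 value of each of the 39 genes (rows, grouped by class) in each of the 6 arrays (columns), shown as the difference from the mean of the 3 controls, red for above and blue for below. HSPA13 and HSPA4L are red and HSPB1 and HSPB8 blue in all 3 celecoxib arrays, while most chaperonin rows, though not CCT7 and TCP1, are reddest in celecoxib replicate 1.

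No chaperonin gene had groups of arrays that stood apart. The cytosolic chaperonin, also called TRiC, is a ring of different subunits, of which TCP1, CCT2, CCT3, CCT4, CCT5, CCT7 and CCT8 were listed members. The subunit CCT6A was measured as part of the wider list of chaperone genes and differed by 0.07 with overlapping groups (limma adjusted p = 0.804). TCP1 read 11.64, 11.67 and 11.68 in the controls and 11.68, 11.66 and 11.63 with celecoxib, a difference of -0.01 with an interval from -0.16 to 0.14. CCT2 differed by 0.10, CCT4 by 0.07, CCT5 by 0.04, CCT3 by 0.02, CCT8 by 0.0004 and CCT7 by -0.12, with adjusted p between 0.545 and 0.999 over the 7 genes. All 7 had overlapping groups. The median of 0.02 was -0.007 with quantile normalization applied again, -0.01 with cyclic loess, -0.008 with array weights and -0.006 without control replicate 2.

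An array stood out more than a group did in these genes. Celecoxib replicate 1 had the highest value of all 6 arrays in 5 of the 7 cytosolic chaperonin genes, where it had the highest value in 27.4% of all genes. CCT2 read 10.71 there, against 10.46 and 10.46 in the other celecoxib arrays and 10.47, 10.33 and 10.52 in the controls. Without that array 3 of the 7 differences were positive and the median was -0.02. Over all members celecoxib replicate 1 was the highest array in 17 of 39 (43.6%) and control replicate 2 the lowest in 16 of 39 (41.0%, against 20.2% of all genes). Small nuclear and nucleolar RNA was highest and lowest in the same arrays, and its part in these values was not tested.

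**Figure D5:**
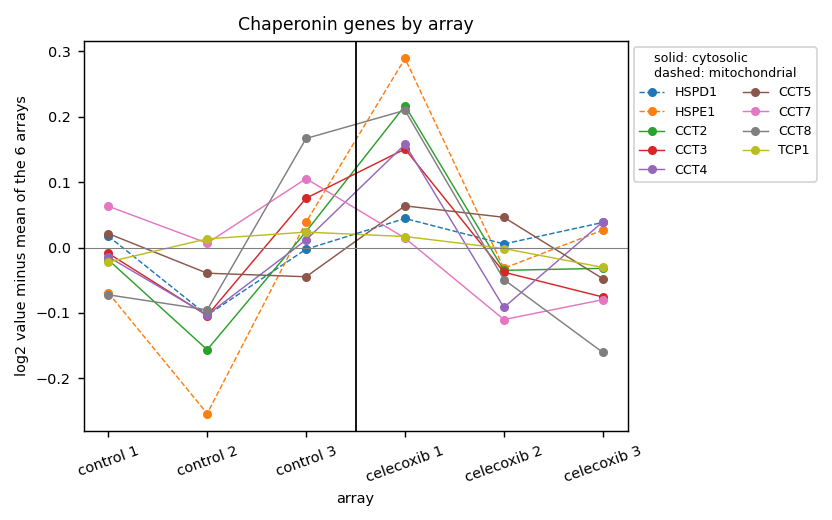
Log2 value of the 7 cytosolic (solid) and 2 mitochondrial (dashed) chaperonin genes in each array, as the difference from that gene's mean over the 6 arrays; the order of arrays within a group has no meaning and lines only join a gene's points. Most genes peak in celecoxib replicate 1, and HSPE1, HSPD1, CCT2, CCT3 and CCT4 are lowest in control replicate 2.

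HSPD1 and HSPE1 encode the chamber and the lid of the mitochondrial chaperonin. Their RefSeq starts point away from each other and are separated by 104 bases at chr2:197500275-197500378 (GRCh38.p14), given here on the plus strand, that of HSPE1, because both promoters contain this whole stretch.
HSPD1 and HSPE1: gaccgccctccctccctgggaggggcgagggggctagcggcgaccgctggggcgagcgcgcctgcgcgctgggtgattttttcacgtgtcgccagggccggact

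The stretch holds no pair of GAA units with this spacing. HSPD1 read 11.76, 11.64 and 11.74 in the controls and 11.79, 11.75 and 11.78 with celecoxib, a difference of 0.06 with an interval from -0.10 to 0.22 (limma adjusted p = 0.758). HSPE1 read 8.89, 8.71 and 9.00 against 9.25, 8.93 and 8.99, a difference of 0.19 with an interval from -0.06 to 0.44 (adjusted p = 0.532). Both genes were highest in celecoxib replicate 1 and lowest in control replicate 2, and the groups overlapped in both.

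HSF1, the factor that drives the heat shock response, read 8.63, 8.75 and 8.55 in the controls and 8.38, 8.62 and 8.63 with celecoxib. The groups overlapped, and the difference was -0.10 with an interval from -0.32 to 0.12 (limma adjusted p = 0.703). Without celecoxib replicate 1, the lowest array for this gene, it was -0.02. HSF1 is controlled mainly at the protein level, which the arrays do not measure.

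Beside the promoter letters, the differences were as follows. The 4 genes with a 3-unit element differed by 0.01 (HSPA8), 0.06 (DNAJA1), 0.05 (DNAJB6) and -0.19 (CHORDC1), and the median of the 11 with an inverted pair was 0.01, beside 0.02 over the 25 without. A match here describes the sequence only. A gene without a match may hold elements outside the window or at another start, which were not searched. The CCAAT box (CCAAT or its reverse complement ATTGG) occurred in 11 of 36 members' promoters and in 34.6% of all promoters.

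Other genes of the chaperone network were taken from a list of 86, of which 73 were measured. None of the 73 passed the adjusted threshold, with a smallest adjusted p of 0.197 (limma), and 7 had an unadjusted p under 0.05, all with higher values (9.59% of 73, against 6.87% of all genes). The median was 0.04, with 47 positive and 26 negative differences (64.4% positive, against 47.9% of all genes). Celecoxib replicate 1 was the highest array in 38 of the 73 (52.1%, against 27.4% of all genes), and its part in this split was not tested. Of 19 measured HSP90 co-chaperones in this list, 11 had positive and 8 negative differences (57.9% positive), with a median of 0.05. They held 4 of the 7 genes with an unadjusted p under 0.05. FNIP1, a folliculin partner that binds HSP90, read 9.49, 9.51 and 9.43 in the controls and 9.78, 9.78 and 9.75 with celecoxib, a difference of 0.29 ± 0.06 (SE, limma adjusted p = 0.197). Its celecoxib values were close together and well above the controls. CDC37L1, a relative of the kinase co-chaperone CDC37, differed by 0.39 ± 0.09 (adjusted p = 0.210) and FNIP2 by 0.31 ± 0.08 (adjusted p = 0.275), both without overlap. The remaining one was TSC1, which also binds HSP90, at 0.24.

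Among the partners of the chaperonin, TBCE, a tubulin-folding cofactor, differed by 0.34 ± 0.09 (SE, limma adjusted p = 0.285) and the prefoldin subunit PFDN5 by 0.28 ± 0.12 (adjusted p = 0.428), with 12 of 15 genes of that list positive (80.0%, against 47.9% of all genes). Celecoxib replicate 1 was the highest array in 10 of these 15 (66.7%). PFDN5 read 8.71 in celecoxib replicate 1, against 8.33 and 8.26 in the other celecoxib arrays and 8.15, 8.17 and 8.16 in the controls. DNAJB14, a J-protein of the endoplasmic reticulum membrane, differed by 0.24 ± 0.08 (adjusted p = 0.363).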

How the data were processed

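RNA of 6 samples (3 control, 3 celecoxib) was measured on Affymetrix HuGene-1_0-st arrays. The deposited table holds log2 values of 33297 transcript clusters, which the authors made with RMA in Affymetrix Expression Console 1.1, per the submitters' processing notes. No label or header records probe-level settings, slides or scanning days, and no batch could be examined. The number of arrays limits the precision. Clusters were named from the platform annotation: 19460 had 1 symbol, 1754 several and 12083 none here. The brightest cluster stood for each of 18417 genes.

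Celecoxib was compared with control with limma 3.58.1 (lmFit, then eBayes; R 4.3.3) over all 18417 genes, with Benjamini-Hochberg adjustment and a threshold of 0.05, two-sided. The fit was tested on simulated data. Members and lists were chosen with earlier results of these data known. All found members are named; values by array are given for those with an unadjusted p under 0.05, those whose groups do not overlap and for main members of each class, and up to 3 genes of each further list with an unadjusted p under 0.05 were named. TSC1, CCT6A, HSPA6, CRYAB, HSPB3, HSPB6, HSPB7 and HSPB9 were named, and array values of CHORDC1, CCT2 and PFDN5 given, after values were seen. Alternatives covered the cluster per gene, filters on dim genes, normalization, variance prior, array weights, replicate number and leaving out arrays. Promoters came from RefSeq (GRCh38.p14). Python 3.11.15 with matplotlib 3.10.9 drew the figures.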

Additional observations from a re-analysis of the deposited data

How the results depend on the processing

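The count of 26 called genes of all 18417 was 177 with array weights, 76 above the median signal, 59 without the dimmest 20%, 69 with an intensity trend in the prior, also with a robust prior, 44 with quantile normalization applied again and 42 with cyclic loess. With every one of the 33297 clusters in the test it was 0 (limma, 2551 with unadjusted p under 0.05), and it was 0 with the replicate number as a block (2448 at an unadjusted p under 0.05), and between 0 and 5 when 1 array was left out. The count of chaperone genes called was 0 in 17 of 18 alternatives and 1 (HSPB8) with array weights, a setting that weighted control replicate 1 most. Their median difference, 0.01, was -0.0182 with cyclic loess and ranged from -0.0086 (without celecoxib replicate 1) to 0.0524 (without celecoxib replicate 3) when 1 array was left out. The 6 genes with an unadjusted p under 0.05 kept their sign in every alternative that tested them; the filter at the median signal left out DNAJB4. Same-numbered arrays did not all deviate together: the correlation of deviations from the group means was -0.02, 0.49 and 0.01 for replicate 1, 2 and 3, and, for example, control replicate 1 correlated best with celecoxib replicate 2, so the number was not taken as a pairing. With the replicate block no chaperone gene was called (smallest adjusted p 0.219). The cause of these shifts was not tested. Signal over background was not examined, so dim genes such as HSPA1L and DNAJB4 are the least certain.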

Other observations

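The platform annotation carries HSPB11, a listed name, under its current symbol IFT25, a subunit of intraflagellar transport. IFT25 read 9.01, 8.93 and 8.96 in the controls and 9.11, 8.92 and 8.85 with celecoxib, and differed by -0.01 with an interval from -0.20 to 0.19 (limma adjusted p = 0.978). Its groups overlapped, as they did in most chaperone genes.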
